A study of Mus musculus with 346 samples.

Results

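Transcripts of 10 genes of the Wnt pathway were followed in single cells sorted as mammary epithelium through post-natal development. The genes were chosen by name, among 25148 genes analysed, and comprised the R-spondin receptors Lgr4, Lgr5 and Lgr6, the secreted inhibitors Sfrp1 and Wif1, the intracellular inhibitor Nkd2, the target and feedback inhibitor Axin2, the kinase Gsk3b, β-catenin (Ctnnb1) and the nuclear factor Tcf7l2. The cells came from the mammary glands of female FVB/NJ mice, an inbred strain with no treatment and no engineered allele named in the labels. They were sorted as epithelium and caught on Fluidigm C1 chips, which lyse each cell in a chamber of its own and amplify its polyadenylated RNA. By their labels 144 cells were pre-pubertal (age 2 weeks), 136 pubertal (4.7 to 4.9 weeks) and 66 adult (10 weeks), of which 116, 119 and 44 passed the coverage filter. Per the study's methods, cells of several mice were pooled in each sort, and no label names the mouse of a cell. Each stage was therefore 1 sample, no test between stages could be made, and the intervals below (95%) cover counting error only.

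Wnt ligands bind Frizzled receptors together with Lrp5 or Lrp6 at the cell surface. Without a ligand, a destruction complex that holds Axin, Apc and the kinase Gsk3b marks β-catenin for degradation. With a ligand this complex is disabled, and β-catenin reaches the nucleus and switches on targets such as Axin2 and Lgr5 through TCF/LEF factors, of which Tcf7l2 is one. R-spondins act through Lgr4, Lgr5 and Lgr6 to keep Frizzled receptors at the surface by blocking the ligases Znrf3 and Rnf43. Sfrp1 and Wif1 are secreted proteins that bind Wnt ligands, and Nkd2 acts inside the cell on Dishevelled. In the mammary gland the pathway is known for its part in bud formation, ductal growth and the maintenance of basal progenitors.

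The identity of the cells was checked before the genes were compared. Of 14 pan-epithelial markers the median pre-pubertal cell showed 0, against 9 at puberty and 7 in the adult, so these markers go against the epithelial label for the typical pre-pubertal cell. Of 24 markers of Schwann cells, the glia of peripheral nerves, it showed 17, against 1 at puberty and 2 in the adult. The summed level of these 24 genes ran from 642 to 79459 CPM (counts per 1000000 reads of the cell) over pre-pubertal cells, from 0 to 140196 at puberty and from 0 to 5291 in the adult. The pubertal cells had no read of Ngfr or Sox2, and the adult cells none of Kcna1, Gfra3, Egfl8, Fabp7 or Mag. Fibroblast markers also moved with stage, with medians of 6.5, 1 and 3 detected of 19. In order of age the medians were 2, 3 and 8 of 15 basal markers, 0, 8 and 6 of 10 luminal, 1, 0 and 0 of 7 pericyte and 1, 1 and 0 of 10 cell cycle genes, and 0 throughout for 10 endothelial and 11 immune markers. The part of these marker programmes in the stage differences given below was not tested. Depth after the filter ranged from 109391 to 1189191 reads per cell, with medians of 296602, 574826 and 334660 in order of age, and no pair of cells held identical counts.

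Promoters from the RefSeq annotation of GRCm38.p6, 250 bases before to 50 bases after a transcript start, were searched for the TCF/LEF core CTTTGA on both strands. Of the 10 genes, 8 had an entry (all but Lgr5 and Sfrp1), with more than 1 window for Ctnnb1 and Tcf7l2. The core was in a window of 1 of the 8 genes. Of all 32851 promoters 16.0% held it, which is a share of windows and not of genes. The following 3 are shown because Gsk3b and Lgr4 were both high up to puberty and low in the adult, and because Axin2 is the usual readout of β-catenin and TCF activity. The Gsk3b window is chr16:38088751-38089050, the Lgr4 window chr2:109917397-109917696 and the Axin2 window chr11:108920099-108920398, all on the plus strand. The Axin2 window belongs to a transcript that starts 2521 bases inside the annotated gene. Capitals mark the core, which the Gsk3b window carries on its other strand as TCAAAG, beginning at position -77 from the start. A match describes the letters alone, and its absence from the Lgr4 and Axin2 windows says nothing of binding elsewhere.
Gsk3b: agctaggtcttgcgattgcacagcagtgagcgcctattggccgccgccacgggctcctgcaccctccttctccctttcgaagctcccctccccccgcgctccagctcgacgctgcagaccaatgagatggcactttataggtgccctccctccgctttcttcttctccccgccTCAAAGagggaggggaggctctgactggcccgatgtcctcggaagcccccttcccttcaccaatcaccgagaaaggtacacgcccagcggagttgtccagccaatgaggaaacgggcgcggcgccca
Lgr4: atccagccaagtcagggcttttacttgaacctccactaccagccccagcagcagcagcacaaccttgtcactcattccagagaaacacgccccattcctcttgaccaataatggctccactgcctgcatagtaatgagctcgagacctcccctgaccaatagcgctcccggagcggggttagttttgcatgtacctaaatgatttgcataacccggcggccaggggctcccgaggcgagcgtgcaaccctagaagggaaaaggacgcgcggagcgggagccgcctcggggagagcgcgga
Axin2: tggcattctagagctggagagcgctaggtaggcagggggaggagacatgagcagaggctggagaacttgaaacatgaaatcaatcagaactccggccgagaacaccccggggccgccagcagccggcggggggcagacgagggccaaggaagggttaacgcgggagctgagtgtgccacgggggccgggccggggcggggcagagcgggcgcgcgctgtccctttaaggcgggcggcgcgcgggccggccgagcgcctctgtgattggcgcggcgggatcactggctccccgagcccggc

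Levels of a stage are given as CPM of the summed reads of its kept cells. For all 10 genes the lowest cell of each stage had no read. Log2 ratios were taken after 5 CPM had been added to both stages, which understates the change of low genes.

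Lgr5, a receptor for R-spondins that marks stem cells in several epithelia, lies at chr10:115450314-115587780. It was found at both ends of development and was nearly absent at puberty. Pre-pubertal cells had 75.1 CPM (72.4 to 77.8), pubertal cells 0.190 (0.101 to 0.325) and adult cells 72.2 (68.4 to 76.1). After each cell had been thinned to 100000 reads, 29 of 116 pre-pubertal cells retained a read of Lgr5 (25.0%, 17.4 to 33.9). The corresponding numbers were 2 of 119 for pubertal cells (1.68%, 0.204 to 5.94) and 6 of 44 for adult cells (13.6%, 5.17 to 27.4). The median cell of each stage had no read of the gene. Among cells in which it was detected, the lowest, median and highest levels were 13.4, 139 and 1331 CPM at pre-puberty. The 6 adult cells had 2.87, 39.2, 41.4, 808, 1013 and 1023 CPM, so their median of 425 lay near none of them. Over all 8 adult cells with a read before thinning the median was 40.3 CPM, against 134 over the 31 pre-pubertal ones. The 2 pubertal cells had 10.5 and 13.6 CPM, near the lowest pre-pubertal one. Pubertal Lgr5 rested on 13 reads in 3 cells. Pre-puberty stood above puberty by a log2 ratio of 3.95, and puberty below the adult at -3.89. Between pre-puberty and the adult the ratio was 0.05, with an interval of -0.07 to 0.17. This near equality of levels depended on adult cell 42, which held 61.1% of the adult reads: leaving out the top cell at each stage gave 61.2 and 29.4 CPM, and the log2 ratio was 0.95.

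Lgr4, the R-spondin receptor of widest expression, lies at chr2:109917647-110014257. It was present at high level up to puberty and fell in the adult. Pre-pubertal cells had 999.8 CPM (990.1 to 1010), pubertal cells 1034 (1027 to 1042) and adult cells 149.2 (143.8 to 154.9). The median cell had 783, 319 and 12.7 CPM, and the highest 4391, 5622 and 1227. Pre-pubertal cells carried Lgr4 almost without exception, in 115 of 116 thinned cells (99.1%, 95.3 to 100.0). The gene was detected in 97 of 119 pubertal cells (81.5%, 73.4 to 88.0) and in 26 of 44 adult cells (59.1%, 43.2 to 73.7). Pre-puberty and puberty thus had like summed levels (log2 ratio -0.05), with a lower median and a wider spread of cells at puberty. The log2 ratio was 2.70 for pre-puberty over adult and 2.75 for puberty over adult. Adult cell 58 carried 35.1% of the reads of its stage. With top cells left out both ratios were larger, at 3.11 and 3.21.

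Lgr6, at chr1:134983300-135105374, and Axin2, at chr11:108917828-108950783, were close to the floor of the data. Lgr6 had 1.55, 0.365 and 1.02 CPM in order of age and was detected in 1, 2 and 2 thinned cells. A single pre-pubertal cell, cell 112, held 96.8% of the 63 reads of that stage. Axin2 had 2.75 CPM (2.27 to 3.31), 0.467 (0.320 to 0.660) and 1.07 (0.654 to 1.65) in the same order. It was detected in 11 thinned pre-pubertal cells (9.48%, 4.83 to 16.3), with 3.50 to 47.4 CPM, and in 2 cells at each later stage. None of the 6 log2 ratios of these genes reached 1 in size. For Axin2 the ratio of pre-puberty over puberty was 0.50 with 5 CPM added and 1.35 with 1 CPM added, so its side depended on the constant.

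Sfrp1, a secreted frizzled-related protein at chr8:23411383-23449632, was lower at each later stage. It had 683 CPM (675 to 691), 46.5 (44.9 to 48.2) and 6.53 (5.42 to 7.79) in order of age. The median cell had 369 CPM at pre-puberty and no read later, and the highest cell had 7934, 820 and 135 CPM. Thinned cells with the gene numbered 102 of 116 (87.9%, 80.6 to 93.2), 16 of 119 (13.4%, 7.89 to 20.9) and 2 of 44 (4.55%, 0.555 to 15.5). Where it was detected after thinning, the median level was 442 CPM at pre-puberty and 261 at puberty. Over all cells with a read before thinning (93.97% and 17.65% of cells), it was 416 and 16.5 CPM. Whether these stages were further apart in the share of cells or in the level per positive cell thus depended on the detection rule. Pre-puberty stood above puberty by a log2 ratio of 3.74 and above the adult by 5.90, and puberty above the adult by 2.16. At pre-puberty, cells with Sfrp1 showed a median of 17 Schwann markers and the 14 cells without it 16.5.

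Wif1, the Wnt inhibitory factor at chr10:121034004-121100642, ran the other way. Pre-pubertal cells had 14.4 CPM (13.2 to 15.6), pubertal cells 27.2 (25.9 to 28.4) and adult cells 41.3 (38.4 to 44.3). It was detected in 4 of 116 (3.45%, 0.947 to 8.59), 15 of 119 (12.6%, 7.23 to 19.9) and 9 of 44 thinned cells (20.5%, 9.80 to 35.3), and the highest cells had 868, 880 and 1442 CPM. The 3 shares are ordered by age, and the intervals of neighbouring stages overlap. The log2 ratio of pre-puberty was -1.26 against the adult and -0.73 against puberty, and that of puberty against the adult was -0.53. The first of these did not hold its side: it was -0.72 with a stricter coverage filter (200000 reads and 2000 genes) and -0.93 when pre-pubertal cells were limited to those numbered 38 and above in the labels.

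Nkd2, naked cuticle 2, an inhibitor that binds Dishevelled, lies at chr13:73818534-73847631. It was a gene of the pre-pubertal cells in level. It had 418 CPM (411 to 424) there, compared with 2.95 (2.56 to 3.38) in pubertal and 5.03 (4.06 to 6.15) in adult cells. Thinned detection was 63 of 116 (54.3%, 44.8 to 63.6), 3 of 119 (2.52%, 0.523 to 7.19) and 2 of 44 (4.55%, 0.555 to 15.5). Its pre-pubertal cells were more unequal than those of Sfrp1, with a median of 9.50 CPM against a highest cell of 4954, and 7 cells held at least 50% of the reads, compared with 14 for Sfrp1. Pre-puberty stood above puberty by a log2 ratio of 5.73 and above the adult by 5.40. Nkd2 was detected in 58 of the 102 pre-pubertal cells with Sfrp1 (56.9%) and in 5 of the 14 without (35.7%). Pre-pubertal cells with Nkd2 showed a median of 18 Schwann markers and the 53 cells without it 16.

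**Figure D1:**
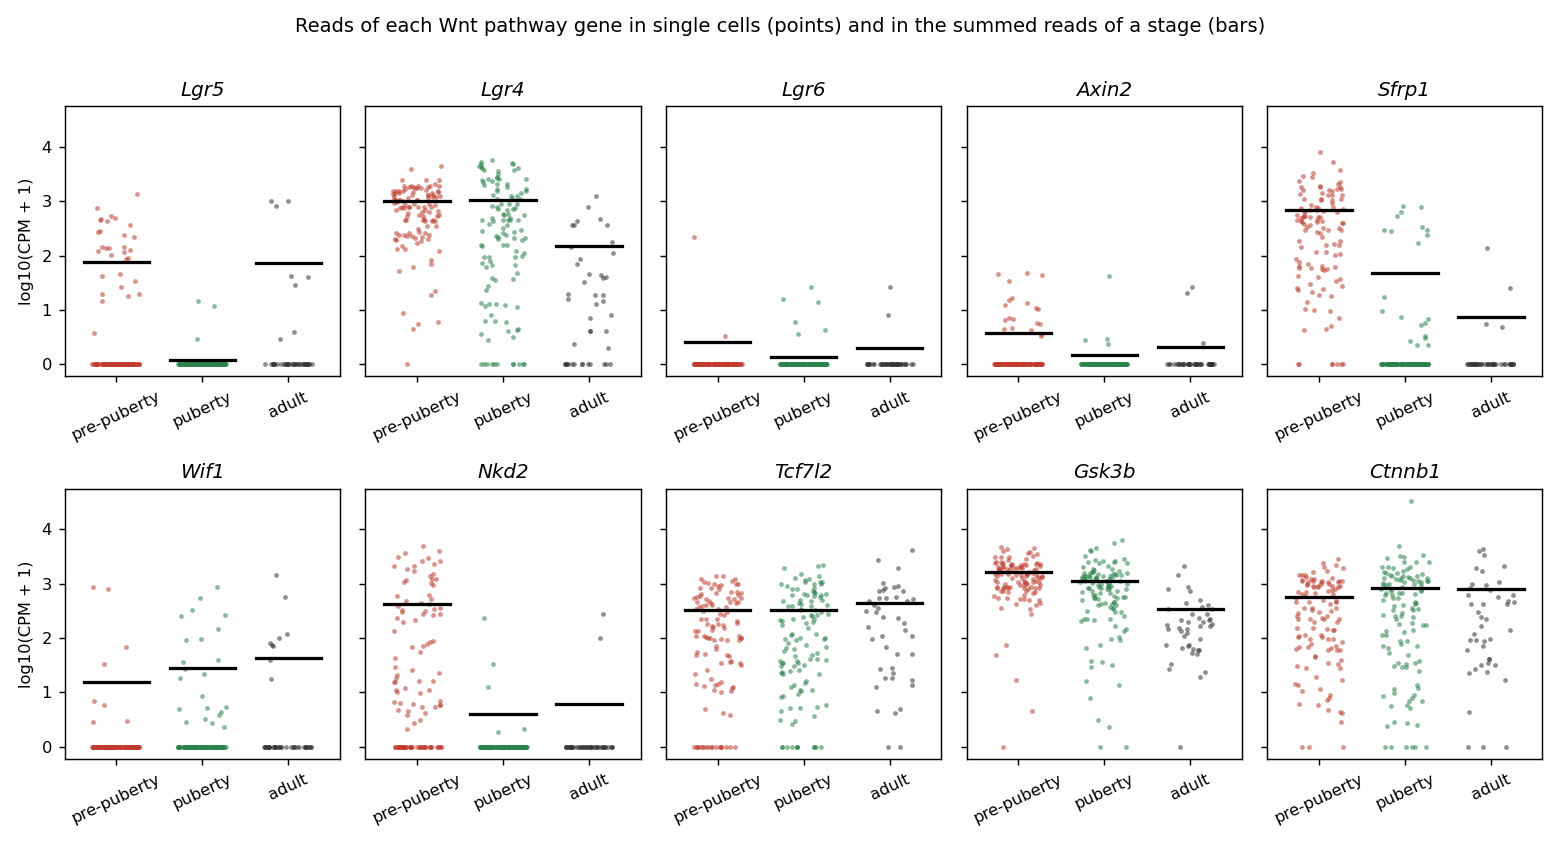
Level of each of the 10 genes in every kept cell, as log10 of CPM plus 1, by stage (116 pre-pubertal, 119 pubertal and 44 adult cells). Points are cells and bars the level of the summed reads. Sfrp1 and Nkd2 are without reads in most cells after pre-puberty, Lgr4 and Gsk3b sit lower in the adult, and the highest Ctnnb1 point is pubertal cell 34 with 33083 CPM.

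The genes of signal transduction were found in most cells of every stage. Tcf7l2, a nuclear partner of β-catenin at chr19:55741797-55933659, had 330 CPM (324 to 335), 328 (323 to 332) and 444 (434 to 453) in order of age, with median cells of 135, 98.6 and 207 CPM. It was detected in 82.8%, 80.7% and 90.9% of thinned cells, and no log2 ratio passed 1 in size. Ctnnb1, β-catenin itself, at chr9:120933400-120960507, had 574 CPM (567 to 582), 835 (828 to 841) and 789 (777 to 802), with log2 ratios of -0.54, -0.46 and 0.08. Its median pubertal cell had 416 CPM and its median adult cell 194, beside nearly equal summed levels. Pubertal cell 34 had 33083 CPM of Ctnnb1, and without it the pubertal level was 775 CPM.

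Gsk3b, the kinase of the destruction complex at chr16:38089001-38246084, had 1624 CPM (1612 to 1637), 1118 (1110 to 1126) and 335 (327 to 343). The median cell had 1382, 867 and 164 CPM, and the highest 4657, 6354 and 2120. The share of cells with the gene hardly moved, at 114 of 116 (98.3%), 114 of 119 (95.8%) and 43 of 44 (97.7%). Above 40 RPKM (reads per 1000 bases of gene per 1000000 reads), however, Gsk3b was found in 110 pre-pubertal cells (94.8%), 91 pubertal cells (76.5%) and 11 adult cells (25.0%). The stages differed in level among cells with the gene, and little in the share of cells with a read. The log2 ratio was 2.26 for pre-puberty over adult and 1.72 for puberty over adult.

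Compared per length, the order of the genes changed with stage. At pre-puberty Lgr4 (198 RPKM, a level) and Gsk3b (196) were followed by Ctnnb1 (158.5), Sfrp1 (156.2) and Nkd2 (130), then Tcf7l2 (72.4), Lgr5 (15.9) and Wif1 (6.40). At puberty Ctnnb1 led (230 RPKM) before Lgr4 (204), Gsk3b (135) and Tcf7l2 (72.0), and Wif1 (12.1) came next. In the adult Ctnnb1 (218) and Tcf7l2 (97.4) led, and Gsk3b (40.4), Lgr4 (29.5), Wif1 (18.4) and Lgr5 (15.3) followed. The spread over cells was wide at all ranks: the middle 50% of pre-pubertal cells ran from 51.8 to 267 RPKM for Lgr4, from 99.6 to 249 for Gsk3b and from 12.7 to 197 for Sfrp1, so these 3 genes cannot be set apart by their cells. For Tcf7l2 and the next gene the middle ranges did not overlap at pre-puberty and at puberty. At pre-puberty they all but met, with 3.10 to 103 RPKM against 0 to 3.03 for Lgr5, so this gap is too small to set the 2 genes apart. At puberty the range was 3.95 to 108 RPKM against 0 for Wif1. In the adult the next gene was Gsk3b, and its range of 8.43 to 35.6 RPKM lay inside that of Tcf7l2 (5.545 to 122.7).

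Between pre-puberty and puberty, 3 of the 10 genes (Lgr5, Sfrp1 and Nkd2) were higher at pre-puberty by a log2 ratio of 1 or more, and 21.4% of 9869 genes at 10 CPM or more at either stage were so. None of the 10 was higher at puberty by that much, beside 24.0% of genes. Against the adult, Lgr4, Sfrp1, Nkd2 and Gsk3b were higher at pre-puberty, 4 of 10 beside 31.7% of 9754 genes, and Wif1 was higher in the adult, 1 of 10 beside 28.9%. Between puberty and adult, Lgr4, Sfrp1 and Gsk3b were higher at puberty, 3 of 10 beside 28.4% of 9465 genes, and Lgr5 was higher in the adult, 1 of 10 beside 20.6%. The 10 CPM minimum of the background left 8, 8 and 7 of the 10 genes (Lgr6 and Axin2 fell below it in each comparison, and Nkd2 between puberty and adult), which makes the shares higher at the earlier stage 37.5%, 50.0% and 42.9% and those higher at the later stage 0%, 12.5% and 14.3%. The median log2 ratio of all genes was -0.12, 0.03 and 0.10 for these comparisons in turn.

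**Figure D2:**
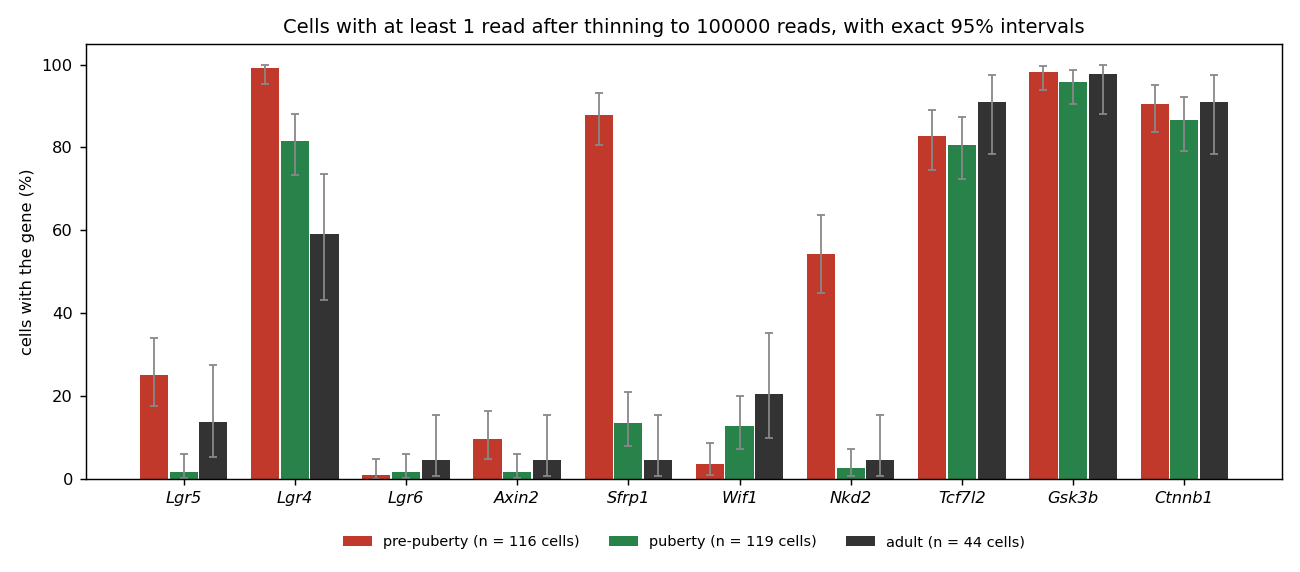
Percent of kept cells with at least 1 read of each gene after thinning to 100000 reads, by stage; error bars are exact binomial 95% intervals. Lgr5 stands at 25.0%, 1.68% and 13.6%, Sfrp1 falls from 87.9% to 4.55%, Nkd2 from 54.3% to 4.55%, and Gsk3b stays above 95% at each stage.

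Single cells carried much of the signal of several genes, above all in the adult. At least 25% of the reads of a gene came from 1 cell for 3 of the 10 genes at pre-puberty (Lgr6, Axin2 and Wif1), for 6 at puberty and for 8 in the adult, where 44 cells had passed the filter. The share of all genes past this mark was not computed. The counts therefore cannot set the 10 genes apart from other genes of a stage, and the adult had the fewest cells. Pre-pubertal cell 121 held 61.8% of the Wif1 reads, and without it the level was 5.54 CPM in place of 14.4. Pubertal cell 35 held 88.1% of the 202 Nkd2 reads, pubertal cell 53 held 90.6% of the 32 Axin2 reads, and adult cell 24 held 88.5% of the 122 Sfrp1 reads. Without these cells the levels were 0.354, 0.0442 and 0.782 CPM. By contrast the top cell held 6.30% of the pre-pubertal Sfrp1 reads, 13.3% of those of Nkd2 and 19.3% of those of Lgr5, and at no stage more than 21.6% of those of Ctnnb1 or 16.4% of those of Tcf7l2.

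**Figure D3:**
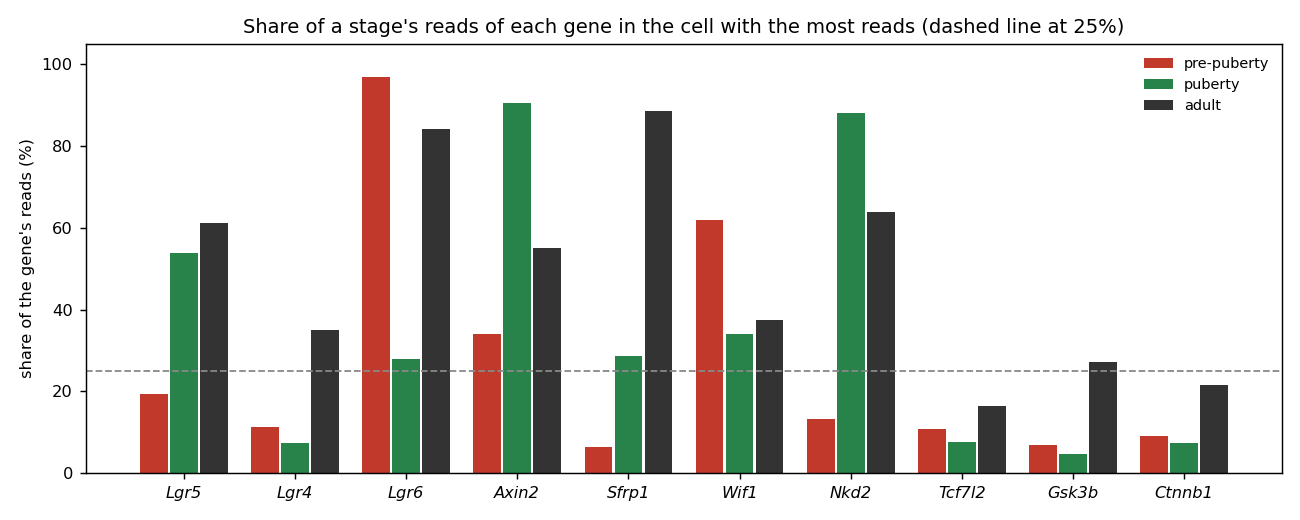
Share of the reads of each gene, within a stage, that came from the cell with the most reads of it. The dashed line marks 25%, which 3 genes pass at the first stage, 6 at the second and 8 at the last; Tcf7l2 and Ctnnb1 stay under it at every stage. The share of all genes past the line was not computed.

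The median cell carried 6 of the 10 genes at pre-puberty and 4 at each later stage, with ranges of 2 to 8, 1 to 7 and 1 to 8. At least 2 of the 3 Lgr receptors were found together in 30 pre-pubertal cells, 4 pubertal cells and 5 adult cells, and 1 adult cell carried all 3. No Lgr receptor was detected in 1, 22 and 16 cells in turn.

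Co-detection with Lgr5 was examined first at pre-puberty, where 29 cells carried it and 87 did not. Both sets had like depth (medians of 297845 and 295260 reads) and a median of 17 Schwann markers, but cells with Lgr5 showed more genes after thinning, with medians of 3170 and 2754. Lgr4 was found in all 29 cells with Lgr5 and in 86 of the 87 others. Its level was higher in the former, with lowest, median and highest values of 50.8, 1329 and 3862 CPM against 0, 676 and 4391 CPM, and the sets overlap over most of their range. Summed, Lgr4 had 1423 and 850 CPM, or 1117 and 816 without the top cell of each set. Sfrp1 was found in 24 cells with Lgr5 (82.8%, 64.2 to 94.2) and in 78 others (89.7%, 81.3 to 95.2), with median cells of 219 and 401 CPM. Nkd2 was found in 15 (51.7%) and 48 (55.2%). The least frequent genes rested on few cells: Lgr6 was in 0 of 29 and 1 of 87, Wif1 in 3 of 29 (10.3%, 2.19 to 27.4) and 1 of 87 (1.15%, 0.0291 to 6.24), and Axin2 in 4 (13.8%, 3.89 to 31.7) and 7 (8.05%, 3.30 to 15.9), with overlapping intervals. Of the 9 genes, 3 (Sfrp1, Nkd2 and Tcf7l2) were found in 10% to 90% of pre-pubertal cells, and none of the 3 was detected 20 points or more above or below the other cells. Of 7302 genes in that range, 6.07% were that much higher and 0.329% that much lower in cells with Lgr5. The other 6 genes lay too near 0% or 100% for such a count.

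At later stages the cells with Lgr5 can be given singly. Pubertal cell 5 had 10.5 CPM of Lgr5 with 94.9 of Lgr4 and 31.6 of Nkd2, and pubertal cell 117 had 13.6 with 444 of Lgr4. In the adult, cells 6, 42 and 37 were high in Lgr5, with 1023, 1013 and 808 CPM, and cells 58, 52 and 1 were low, with 41.4, 39.2 and 2.87. Lgr4 did not follow this order: it had no read in cell 6, 461 CPM in cell 42, 7.17 in cell 37 and 1227 in cell 58. Wif1 was detected in 3 of the 6 (572 CPM in cell 1, 115 in cell 58 and 69.3 in cell 37) and in 6 of the 38 other adult cells (15.8%, 6.02 to 31.2). Cell 1 counted as a cell with Lgr5 at 2.87 CPM, whereas cell 18, with 27.75 CPM of Lgr5 and no Wif1, lost its Lgr5 reads in thinning. Cell 1 also showed 15 of 19 fibroblast markers, beside 3 or 4 in the others of the 6. Cell 37 also carried the rare genes Lgr6 and Axin2, with 7.17 and 19.1 CPM. Sfrp1 was in none of the 8 pubertal and adult cells with Lgr5. It was in 16 of the 117 other pubertal cells (13.7%) and in 2 of the 38 other adult cells (5.26%). At such shares 8 cells are too few for its absence to separate the sets. In the adult, 2 genes were found in 10% to 90% of cells (Lgr4 and Wif1). Both were detected 20 points or more above the other cells, and so were 27.9% of 6041 genes in that range, with 8.28% that much below. The 6 cells that set these shares were deeper, with a median of 540628 reads before thinning against 326718. They also showed more genes after thinning (medians of 2824 and 2162) and more Schwann markers (3.5 and 1.5 of 24, with median sums of 1339 and 79.4 CPM), whose part was not tested. All 6 also carried the basal keratin Krt14 above 40 RPKM. Of the 19 adult cells that did, 84.2% had Lgr4 and 47.4% had Wif1, beside 83.3% and 50.0% of the 6. The excess of both genes over the other cells was thus shared by the cells with Krt14, and the part of this keratin was not tested.

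**Figure D4:**
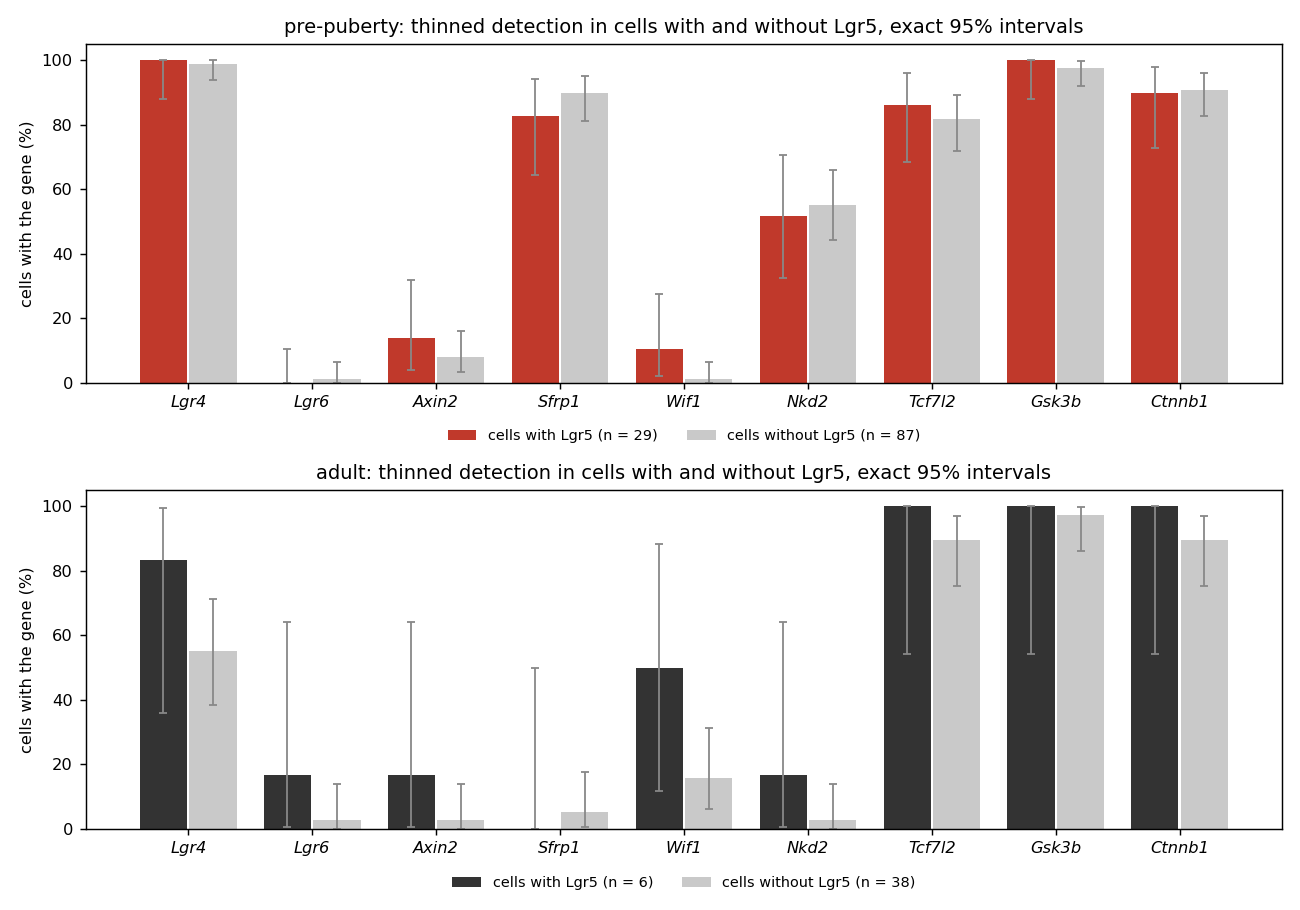
Percent of cells with each of the other 9 genes among cells with and without Lgr5, at pre-puberty (29 and 87 cells) and in the adult (6 and 38 cells), after thinning; error bars are exact binomial 95% intervals or, at 0%, the limit of 3 counts. The intervals of each pair overlap at both stages, and those of the 6 adult cells are wide.

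Keratins separate the layers of the mature gland, Krt14 in basal and Krt8 and Krt18 in luminal cells, and were called above 40 RPKM. Both pubertal and all 6 adult cells with Lgr5 carried Krt14 together with Krt8 or Krt18, a state held by 24 of 119 pubertal and 14 of 44 adult cells. Lgr5 was found in none of the 80 pubertal cells with Krt8 or Krt18 alone, which allows a share of up to 3.75%, and in none of the 22 such adult cells, which allows up to 13.6%. Neither set had an Lgr5 read before thinning. In the 19 adult cells with Krt14 the share was 31.6% (12.6 to 56.6), an interval that begins below the limit of the 22. At pre-puberty, where 97 of 116 cells had none of these keratins, Lgr5 was in 10 of the 17 cells with Krt14 (58.8%, 32.9 to 81.6) and in 19 of the 97 (19.6%, 12.2 to 28.9). These intervals do not overlap, but they cover counting error only, and the share of all genes with such a gap was not computed at this stage. The 17 cells comprised 10 with Krt14 alone and 7 with both, and their medians of thinned genes were 3180 and 3438, against 2775 in the 97.

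Wif1 and Lgr4 were more often detected in cells with Krt14 at both later stages. Wif1 was detected in 10 of 29 pubertal cells with Krt14 (34.5%, 17.9 to 54.3) and in 3 of 80 with Krt8 or Krt18 alone (3.75%, 0.780 to 10.6). In the adult it was in 9 of 19 (47.4%, 24.4 to 71.1) and in 0 of 22, which had no Wif1 read. Lgr4 was detected in all 29 pubertal cells with Krt14 (2007 CPM) and in 58 of the 80 others (72.5%, 61.4 to 81.9; 534 CPM), and in the adult in 16 of 19 (84.2%, 60.4 to 96.6; 325 CPM) and 8 of 22 (36.4%, 17.2 to 59.3; 28.8 CPM). The 10 pubertal cells with none of the keratins also carried Lgr4, at 1956 CPM. Of the 5 genes found in 10% to 90% of pubertal cells, 2 (Lgr4 and Wif1) were 20 points or more higher with Krt14, beside 8.74% of 7312 genes in that range. Of the 3 such genes in the adult, all 3 were (Lgr5, Lgr4 and Wif1), beside 9.96% of 6042. None of these was that much lower with Krt14, beside 2.35% of genes at puberty and 9.72% in the adult. When a single thinned keratin read was enough to call a keratin, the sets held 45 and 70 pubertal and 33 and 11 adult cells, and these counts were 0 and 1.

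Gsk3b, Tcf7l2 and Ctnnb1 were found by share in both keratin sets. In the adult, the levels of Gsk3b and Ctnnb1 were higher with Krt14, at 526 against 192 CPM and at 1250 against 337 CPM. Without the top cell of each set these were 340 against 175 and 931 against 287 CPM. Tcf7l2 had 498 and 434 CPM. At puberty the order was not the same, with Gsk3b at 978 and 1111 CPM and Ctnnb1 at 710 and 957. Depth was like in both sets of a stage, with medians of 539954 and 578850 reads at puberty and 347983 and 331766 in the adult. Cells with Krt14 showed a median of 3 Schwann markers at both stages and the others 1. Fibroblast markers moved the same way, with pubertal medians of 3 and 1 and adult medians of 3 and 2. The part of either list was not tested.

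**Figure D5:**
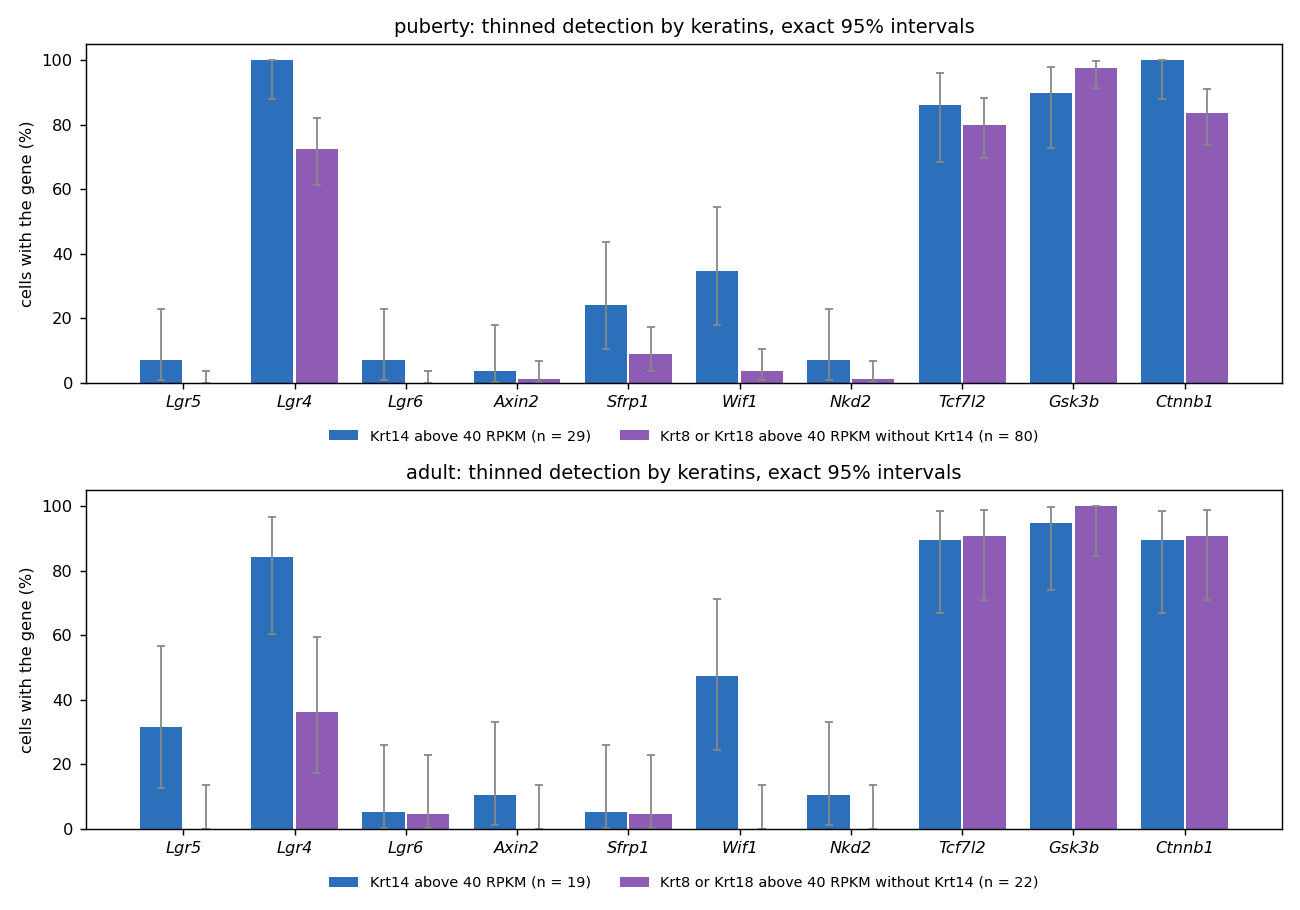
Percent of pubertal (29 and 80) and adult (19 and 22) cells with each gene, split by Krt14 above 40 RPKM or by Krt8 or Krt18 above 40 RPKM without Krt14, after thinning; error bars are exact binomial 95% intervals or, at 0%, the limit of 3 counts. Lgr4 and Wif1 are higher with Krt14 at both stages, and Lgr5 is at 0% in both sets without Krt14.

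The wider pathway was followed in 99 genes listed by role, the 10 included. Of those at 10 CPM or more at either stage, 13 of 50 were higher at pre-puberty and 7 at puberty, 22 of 51 were higher at pre-puberty and 14 in the adult, and 15 of 47 were higher at puberty and 10 in the adult. The shares of all genes that were so were 21.4% and 24.0%, 31.7% and 28.9%, and 28.4% and 20.6%. The counts of single roles given next rest on few genes and are to be read against the same shares. Their median log2 ratios were 0.25, 0.44 and 0.24 in turn, beside -0.12, 0.03 and 0.10 over all genes.

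Among ligands and their release, Wnt5a and Wls were lower at pre-puberty than at either later stage. Of 4 Wnt genes at 10 CPM or more, 1 was higher at pre-puberty and 2 at puberty, and against the adult 1 of 5 was higher at pre-puberty and 4 in the adult. Among the 4 higher in the adult, Wnt5b and Wnt7b each rested on 1 adult cell, with 97.2% and 95.3% of their adult reads. Without it their adult levels were 0.333 and 0.721 CPM. Wnt5a, a ligand of non-canonical signalling, had 35.6, 511 and 118 CPM in order of age with a read in 13.8%, 66.4% and 52.3% of cells after thinning. Wnt4, which acts downstream of progesterone in the gland, had 16.9, 18.9 and 56.6 CPM, and its top cell held 51.9% of the adult reads. Wls, needed for the release of Wnt proteins, had 98.4, 237 and 237 CPM. Of the 4 R-spondins, 1 was past 10 CPM: Rspo1, named here after its values were seen, had 1 read at pre-puberty, none at puberty and 45.8 CPM in the adult, where it was in 9.09% of thinned cells and 1 cell held 66.9% of its reads.

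Among 16 receptors, 2 were higher at pre-puberty and 1 at puberty of the 8 measured, and 3 were higher at pre-puberty and 3 in the adult of 9, beside 21.4% and 24.0%, then 31.7% and 28.9%, of all genes. Fzd1 had 225, 19.0 and 2.41 CPM and Fzd3 had 316, 204 and 4.65 CPM. Both were lowest in the adult. Fzd7 had 28.9, 17.6 and 133 CPM, and 56.1% of its adult reads lay in 1 cell. Znrf3, the ligase that R-spondins and their Lgr receptors hold in check, had 121, 239 and 13.8 CPM, and like Lgr4 it was lower in the adult than at either earlier stage. Of the 3 measured R-spondin receptors and ligases (of 5), Lgr5 was higher at pre-puberty than at puberty, and Lgr4 and Znrf3 were higher at pre-puberty than in the adult.

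Among 13 secreted inhibitors, 3 of 6 were higher at pre-puberty and 1 at puberty, and 3 of 5 were higher at pre-puberty and 2 in the adult, beside 21.4%, 24.0%, 31.7% and 28.9% of all genes. Sostdc1, a secreted antagonist that binds Lrp5 and Lrp6, had the stage order of Sfrp1, with 737, 67.0 and 2.19 CPM and detection in 87.1%, 29.4% and 2.27% of thinned cells. At pre-puberty it was in 88 of the 102 cells with Sfrp1 (86.3%) and in 13 of the 14 without (92.9%). Dkk3 had the order of Wif1, with 18.2, 37.6 and 68.2 CPM, although 1 cell held 82.7%, 48.2% and 54.2% of its reads. Sfrp4 had 7.15, 64.4 and 4.17 CPM. Of 7 intracellular inhibitors 3 were measured, and 2 of them were higher at pre-puberty than at puberty, Nkd2 included, while against the adult 1 was higher (Nkd2) and 1 lower.

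In the destruction complex and its transducers, 1 of 11 genes passed a log2 ratio of 1 between pre-puberty and puberty, namely Apc, a scaffold of the complex, with 77.1, 235 and 123 CPM. Against the adult, 4 of 11 were higher at pre-puberty, Gsk3b among them with Dvl3 (89.9, 48.8 and 5.46 CPM), a Dishevelled protein, and Csnk1d (87.0, 65.0 and 22.2 CPM), a casein kinase. Of 10 nuclear factors 2 were higher at pre-puberty than at puberty and 1 was lower, and 6 of 9 were higher at pre-puberty than in the adult and none lower, beside 31.7% and 28.9% of all genes. Of these 6, Tle2 rested on 1 pre-pubertal cell with 99.8% of its reads of that stage. Without that cell its level was 0.0253 CPM in place of 10.1. Tcf7, a TCF factor, had 21.0, 63.5 and 31.8 CPM. Of 9 common targets 5 were higher at pre-puberty and 1 at puberty, and the same numbers held against the adult, beside 21.4% and 24.0%, then 31.7% and 28.9%, of all genes. The lists overlap, so the counts by role are not separate. Lgr5, Nkd2, Znrf3 and Tcf7 are among these targets and are also counted under another role. Cd44, a hyaluronan receptor, had 894, 385 and 142 CPM in order of age, and Myc, a growth regulator, had 260, 92.5 and 119 CPM.

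Single cells weighed on several of these genes. Leaving out the top cell of each gene at each stage turned the order of Tcf7 between pre-puberty and adult, with 15.0, 50.1 and 10.8 CPM, since 1 cell held 66.4% of its adult reads. It set Wls lower in the adult than at puberty, with 86.5, 204 and 148.8 CPM. The adult level without the top cell was 2.24 CPM for Dvl3, 7.07 for Znrf3 and 81.6 for Cd44, whose top cells held 60.8%, 49.8% and 45.2% of the adult reads.

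The genes whose thinned counts ranked cells most like Lgr5 over the 116 pre-pubertal cells, among 4857 genes in at least 20% of them, were Ate1, Rspry1, Ybx3, Elovl1 and Ipo5, with Spearman coefficients of 0.37, 0.37, 0.36, 0.36 and 0.36. For Sfrp1 they were Abi3bp, Dnajc21, Alcam, Ajap1 and Fgl2, with 0.39, 0.35, 0.34, 0.34 and 0.34. These are weak values in sparse counts that share a library depth, and are given as a description. Of the other 9 genes, Lgr4 (0.26) and Wif1 (0.21) lay nearest to Lgr5, and Nkd2 (0.19) lay nearest to Sfrp1.

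Pre-pubertal cells numbered 1 to 37 in the labels gave 12 kept cells with a median of 936998 reads, and those from 38 on gave 104 with 283481. Lgr5 was in 4 of the 12 and 25 of the 104, with 117 and 60.3 CPM. Sfrp1 had 470 and 757 CPM and Nkd2 had 130 and 518. Detection of Sfrp1 was 11 of 12 and 91 of 104. The higher level of Lgr5, Sfrp1 and Nkd2 at pre-puberty than at puberty held in either set.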

How the data were processed

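Per the labels and the study's methods, the authors mapped read pairs to mm10 with Subread 1.4.6 and counted them per Entrez gene by featureCounts, whose version is not given in the sources used here. They deposited whole-number counts per gene and cell, not normalized, with the counted length of each gene, used here for RPKM alone. Without molecular identifiers, amplified copies count as separate reads. A table of the series held the same values and was not used.

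Entrez numbers were matched to RefSeq symbols (GRCm38.p6, the assembly of mm10): 25275 of 27179 genes matched, and 15 mitochondrial and 112 ribosomal protein genes were removed. As in the study, cells were kept at 100000 reads and 1500 genes (279 of 346). Read sums with exact Poisson intervals, thinned detection with exact binomial (Clopper-Pearson) intervals, limits of 3 counts for zeros and log2 ratios were computed in Python 3.11.15 (numpy 2.4.6, scipy 1.17.1). TMM factors (edgeR 4.0.16) and DESeq2 1.42.0 size factors served as alternative scalings only. No doublet caller was run, since the authors inspected the captured cells by microscope. The calculations were tested on simulated data.

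The genes, the pathway and marker lists and the rules were chosen with earlier results of these data known. Outside the 10 genes, the text names up to 3 genes of each pathway list with the largest CPM among those past a log2 ratio of 1 and at 50 CPM or more, and the 5 genes nearest to Lgr5 and to Sfrp1. Rspo1, Wnt5b, Wnt7b and Tle2 were named after their values were seen.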

Additional observations from a re-analysis of the deposited data

Results flagged for a closer look

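Cells left out by the coverage filter still carried reads of the 10 genes, which the comparisons do not use. At pre-puberty the 10 genes together made up 3766 CPM (3603 to 3935) in 28 such cells, beside 4722 in the kept ones. The 17 pubertal ones had 1216 CPM (1138 to 1298), beside 3392, and the 22 adult ones 2664 (2513 to 2822), beside 1844. They were flagged as signal in data outside the main measurement. Within them Lgr5 had 107 CPM at pre-puberty on 57 reads and no read at puberty or in the adult, Sfrp1 had 265, 1.34 and 0 CPM, and Ctnnb1 had 430, 22.7 and 1786 CPM.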

How the results depend on the processing

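Of the 12 log2 ratios of 1 or more in size among the 30 computed, 11 kept their side under each of 9 alternatives (equal weight for each cell, TMM or DESeq2 factors, 1 CPM added, no filter, a stricter filter, no top cell, pre-pubertal cells 38 and above, and cells with 200000 to 600000 reads). The exception was Wif1, which left the count of genes higher in the adult than at pre-puberty at 0 with the stricter filter, with cells 38 and above and with the depth window. Without the top cell of each gene, 1 gene (Wif1) was higher at puberty than at pre-puberty, in place of 0. The count of genes higher in the adult than at puberty was 2 with equal weight and in the depth window, in place of 1. Pathway genes higher in the adult than at pre-puberty numbered 9 with equal weight and 7 without top cells, in place of 14, and those higher in the adult than at puberty 4 without top cells, in place of 10. At above 40 RPKM, Wif1 in adult cells stood at -9.76 points with Lgr5 against cells without it, in place of 34.2, and 0 genes were 20 points or more higher with Lgr5, in place of 2. An alternative chosen after seeing the data, 1 thinned keratin read, gave 0 pubertal and 1 adult genes higher with Krt14 (2 and 3 before), and the depth window, also chosen then, gave 5 in the adult. The causes were not tested. Of the single values, 136 of 270 log2 ratios, 73 of 99 differences with Lgr5 (25 moved and 1, Wif1, reversed), 123 of 160 shares of cells and 58 of 90 top-cell shares stayed within the interval of the main value. No paired analysis was possible because each stage is 1 sample and cell numbers pair nothing. Leaving out a mouse was not possible, since no label names one, and the small number of adult cells limits every adult share.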
